A study of Arabidopsis thaliana with 5 samples.

Results

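The genes described are 10 Arabidopsis thaliana genes of cuticular wax synthesis, taken by gene identifier from a table of 24200 genes: CER1, CER1-like 1, CER3, CER4, MAH1, WSD1, CER2, CER26, KCR1 and CER10. Of these 10, 9 had a row in the table and 7 passed the filter on low values. MAH1 (AT1G57750) had no row, so its transcript level was not analysed here and only its promoter window was searched. RNA was measured in 2 libraries of hdl, a mutant of HOMEODOMAIN-LIKE (allele hdl-1), and 3 libraries of wild type (WT). Both genotypes carried a reporter, AtML1pro:RCI2A-mCherry, in which the promoter of the epidermal gene ATML1 drives a red membrane protein. Seeds of both had 2 days of cold, plants grew in long days on half-strength MS medium, and leaf protoplasts were sorted for red fluorescence at 9 days post germination, about 20000 cells per library. Transcripts of the mutated gene were not analysed here.

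Cuticular wax is a mixture of very-long-chain lipids that epidermal cells make in the endoplasmic reticulum and export to the surface of the shoot, where it limits water loss. An elongase complex lengthens acyl chains in repeated cycles, and the products then enter one of a pair of branches. The alkane branch makes aldehydes, alkanes, secondary alcohols and ketones, and the alcohol branch makes primary alcohols and wax esters.

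Transcripts of KCR1 and CER10, core elongase subunits, of CER2 and CER26, which act with the condensing enzyme, and of CER3 were higher in hdl, whereas CER1, the partner of CER3 in alkane formation, was not called. Of the 7 genes tested, 5 rose, 0 fell and 2 did not pass, at an adjusted p under 0.05 in limma over all genes tested. By the same test 8.21% of 20391 genes rose and 4.5% fell. The genes that rose were CER3, by a factor of 3.73 in mean level, CER26 by 2.51, CER2 by 2.48, KCR1 by 1.95 and CER10 by 1.81. In bulk samples, fewer cells of a type and less RNA per cell cannot be told apart. The median log2 change of the 7 genes was 1.22, against -0.05 over all genes tested. That median is the value of CER1, which was not called and was 0.75 in edgeR and 0.76 in DESeq2. The alcohol-branch genes CER4 and WSD1 lay below the filter, at 0 or 1 read per library for CER4.

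Values are counts per gene divided by a library size factor, called normalized counts below, and 1 read was worth between 0.834 and 1.35 of them. The libraries held 18316092 and 19741801 gene reads in hdl, against 15418154 to 22838239 in WT. After division by the size factors the totals were 24709399 and 24387425 normalized counts in hdl, against 19046245 to 20079270 in WT. The setting called equal totals below removes this difference. Nothing in the labels tells separate plants or cultures from repeat samples of one, so the spread behind each p-value may be technical. Log2 changes are hdl minus WT means of log2(normalized count + 1), given with their SE.

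The sequences that bear on how reads are assigned are those of the tandem pair CER1 and CER1-like 1, which lie 388 bases apart on chromosome 1. Their coding sequences were 65.7% identical over 1862 aligned bases. No stretch of 50 bases was identical among 1844 windows of that length in CER1. The longest identical run was 32 bases, at coding positions 706 to 737 of both genes, shown here in capitals with the neighbouring bases of each gene (RefSeq, TAIR10.1).
CER1: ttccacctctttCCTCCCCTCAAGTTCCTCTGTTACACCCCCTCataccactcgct
CER1-like 1: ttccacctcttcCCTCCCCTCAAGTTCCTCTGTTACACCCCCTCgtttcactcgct
A read of 50 bases that lies in coding sequence and holds no error could therefore be assigned to one of the pair. The read length is not given in the sources used here. CER2 and CER26 were 60.2% identical, with a longest identical run of 20 bases.

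Promoter windows are shown for CER3 and CER26, which rose, and for the tandem pair, which was not called. Each window holds the 250 bases before the RefSeq gene start in TAIR10.1, read on the strand of the gene. Capitals mark matches to TAAATGNA, a loose form of the L1 box, a motif of epidermal homeodomain proteins. Any base was allowed at N, so a match need not be an L1 box.
CER3, chr5:23419934-23420183, plus strand: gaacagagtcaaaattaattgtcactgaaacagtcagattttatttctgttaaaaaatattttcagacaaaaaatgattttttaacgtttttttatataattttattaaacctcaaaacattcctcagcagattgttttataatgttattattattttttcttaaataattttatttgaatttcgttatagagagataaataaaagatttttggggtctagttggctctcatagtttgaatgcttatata
CER26, chr4:8016583-8016832, minus strand: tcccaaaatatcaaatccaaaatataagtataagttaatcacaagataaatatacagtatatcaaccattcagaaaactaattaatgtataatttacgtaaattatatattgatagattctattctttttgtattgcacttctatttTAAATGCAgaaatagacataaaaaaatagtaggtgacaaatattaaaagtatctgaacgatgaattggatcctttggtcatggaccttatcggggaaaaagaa
CER1, chr1:418166-418415, plus strand: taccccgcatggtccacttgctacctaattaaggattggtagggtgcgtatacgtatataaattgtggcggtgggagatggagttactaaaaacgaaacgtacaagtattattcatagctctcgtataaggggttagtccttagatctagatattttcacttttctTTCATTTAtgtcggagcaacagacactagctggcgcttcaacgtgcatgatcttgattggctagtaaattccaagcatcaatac
CER1-like 1, chr1:414824-415073, plus strand: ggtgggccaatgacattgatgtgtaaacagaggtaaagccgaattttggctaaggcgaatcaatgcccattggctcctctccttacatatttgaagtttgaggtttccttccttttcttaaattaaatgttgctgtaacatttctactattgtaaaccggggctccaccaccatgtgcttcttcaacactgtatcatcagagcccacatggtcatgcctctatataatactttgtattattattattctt
The CER26 window held a match to TAAATGNA on the gene strand, 103 to 96 bases before the start. The CER1 window held a match on the other strand, 84 to 77 bases before the start. Searched on both strands, TAAATGNA was in 3 of the 10 windows, with WSD1 as the third gene. It was in 9.91% of 27443 windows of protein-coding genes. The MYB-type motif TAACTA was in 2 of 10 windows, those of CER2 and MAH1, and in 20.6% of all windows. The G-box CACGTG was in 0 of 10 and in 6.49% of all windows. The 250-base windows of CER2 and KCR1 run into a neighbouring gene by 231 and 171 bases and are not printed. A match is only a match of letters in this window.

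All 4 elongation genes of the group, CER2, CER26, KCR1 and CER10, rose in hdl. CER2 and CER26 encode proteins related to acyltransferases that allow the condensing enzyme CER6 to make the longest wax chains. CER2 (AT4G24510, TAIR10.1 chromosome 4, 12660687 to 12662656) had 2088 and 1915 normalized counts in hdl replicates 1 and 2, against 786, 871 and 760 in WT replicates 1, 2 and 3. Both hdl libraries stood above every WT library, and its log2 change was 1.31 ± 0.14 (SE, adjusted p = 0.00643, limma). CER26 (AT4G13840, chromosome 4, 8013575 to 8016582) had 1844 and 1482 in hdl, against 755, 510 and 720 in WT. Here too the groups did not overlap, with WT replicate 2 the lowest library, and the log2 change was 1.34 ± 0.22 (SE, adjusted p = 0.0174, limma).

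KCR1 and CER10 are core subunits shared by the elongation cycles: KCR1 is the ketoacyl-CoA reductase and CER10 the enoyl-CoA reductase. KCR1 (AT1G67730, chromosome 1, 25391338 to 25393889) had 2002 and 1685 normalized counts in hdl, against 1090, 731 and 1015 in WT. CER10 (AT3G55360, chromosome 3, 20520930 to 20523098) had 1814 and 1623 in hdl, against 992, 945 and 907 in WT. In both genes every hdl library was above every WT library. The log2 change was 0.98 ± 0.21 for KCR1 (SE, adjusted p = 0.0352, limma) and 0.86 ± 0.14 for CER10 (SE, adjusted p = 0.0157, limma). With libraries scaled to equal totals KCR1 no longer passed, at 0.65 (adjusted p = 0.0778 in limma, against 0.00138 to 0.206 over its 15 alternatives); in that fit 4.86% of all genes were called higher and 12.5% lower.

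CER2 and CER10 each overlap a gene on the opposite strand, and the sources used here do not say whether reads were counted by strand. For these genes, reads of the partner cannot be told apart if strand was not used. In hdl CER2 was at 2002 ± 123 normalized counts and CER10 at 1719 ± 135 (SD, n = 2). The WT levels were 806 ± 58.2 and 948 ± 42.3 (SD, n = 3), and these spreads do not bear on strand. The other 5 tested genes overlap no annotated gene.

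CER3 encodes the protein that acts with CER1 to turn acyl-CoAs into alkanes, and it had the largest change of the 7 tested genes. CER3 (AT5G57800, chromosome 5, 23420184 to 23424117) had 4004 and 3965 normalized counts in hdl, against 1188, 815 and 1199 in WT. The hdl libraries were nearly equal and more than 3 times the highest WT library. Its log2 change was 1.92 ± 0.20 (SE, adjusted p = 0.00631, limma), higher than that of 97.3% of the genes tested.

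CER1, the alkane-forming enzyme proper, had 213 and 235 normalized counts in hdl, against 219, 25.6 and 151 in WT (AT1G02205, chromosome 1, 418416 to 422579). The groups overlapped: WT replicate 1 lay between the hdl libraries, and WT replicate 2 stood far below all others. The low value came from 20 reads, and its exact 95% Poisson interval of 15.6 to 39.6 normalized counts, which covers counting error only, lies below the interval of 130 to 175 for WT replicate 3. The log2 change of 1.22 ± 0.87 did not pass (SE, adjusted p = 0.369, limma), and without WT replicate 2 it was 0.30. A comparison of CER1 between genotypes thus rests on that 1 library.

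CER1-like 1, the neighbouring paralog of CER1, pointed the other way. It had 82.3 and 56.8 normalized counts in hdl, against 203, 87.1 and 234 in WT (AT1G02190, chromosome 1, 415074 to 418027). Both hdl libraries were below every WT library, but hdl replicate 1 was close to WT replicate 2. The log2 change of -1.22 ± 0.49 did not pass (SE, adjusted p = 0.149, limma). Without WT replicate 2 it was -1.66 and passed (adjusted p = 0.0103 in limma, against 0.0103 to 0.394 over 15 alternatives), in a fit that called 17.8% of all genes higher and 11.4% lower. The summed level of both paralogs was 295 and 292 normalized counts in hdl, against 421, 113 and 385 in WT, so the sum overlapped between genotypes.

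Alcohol-branch transcripts gave few reads in either genotype. CER4 (AT4G33790, chromosome 4, 16204096 to 16207956), the reductase that makes primary alcohols, had 1 read in hdl replicate 1, 0 in hdl replicate 2, and 1, 0 and 1 reads in WT replicates 1, 2 and 3. Every library was below the limit of 3 reads that a count of 0 allows, so no fold change is given. Whether CER4 reads were lost in counting was not tested, and no difference between genotypes can be read from these counts. WSD1 (AT5G37300, chromosome 5, 14767426 to 14770396), which joins alcohols and acyl chains into wax esters, had 17 and 6 reads in hdl, against 0, 3 and 0 in WT. These are 22.9 and 7.41 normalized counts in hdl, against 0, 3.84 and 0 in WT. Both hdl values were the higher ones, but the 95% Poisson interval of hdl replicate 2, 2.72 to 16.1, overlaps that of WT replicate 2, 0.793 to 11.2. WSD1 lay below the filter and was not tested in the reported fit.

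**Figure D1:**
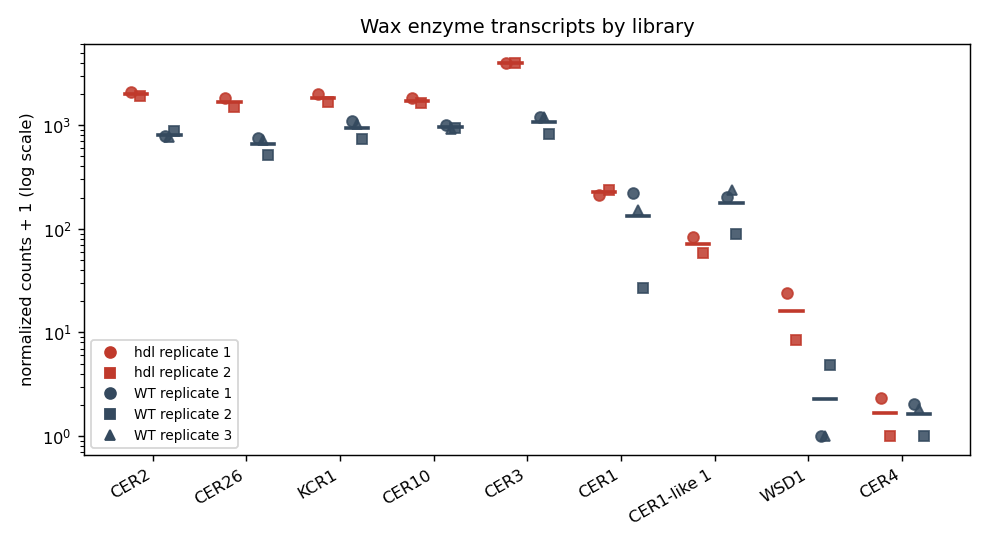
Normalized counts plus 1 of the 9 genes with a row, on a log axis, in each hdl library (red, left of each pair) and WT library (dark blue, right); horizontal lines are group means. The groups separate, with hdl higher, for CER2, CER26, KCR1, CER10 and CER3, and at few reads for WSD1, which lay below the filter. They also separate for CER1-like 1, with hdl lower, which was not called. They overlap for CER1 because of WT replicate 1, and CER4 stays at 0 or 1 read.

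Per length, the tested genes formed an abundant and a scarce class in both genotypes. On the scale of normalized counts per 1000 exon bases, the level in hdl was 1539 ± 10.5 for CER3, 1230 ± 75.4 for CER2, 1201 ± 94.5 for CER10, 1013 ± 123 for KCR1 and 809 ± 124 for CER26 (SD, n = 2). In WT the order was another, with CER10 at 663 ± 29.6, KCR1 at 520 ± 104, CER2 at 495 ± 35.8, CER3 at 412 ± 84.5 and CER26 at 322 ± 64.5 (SD, n = 3). CER3 was thus first of these 5 in hdl and next to last in WT. Among neighbours in the order, the library values of CER2 and CER10 overlapped in hdl, as did those of KCR1 and CER2 and those of CER3 and CER26 in WT. CER1 was far lower, at 62.3 ± 4.24 in hdl and 36.7 ± 27.2 in WT, as was CER1-like 1, at 31.7 ± 8.20 in hdl and 79.6 ± 35.3 in WT.

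Ratios between genes within a library do not depend on how libraries are scaled to each other, and 7 such ratios were computed. With 2 against 3 libraries an exact permutation test, two-sided over 10 arrangements, cannot go below p = 0.1. CER3 over KCR1 was 2.00 and 2.35 in hdl, against 1.09, 1.11 and 1.18 in WT, a difference in mean log2 ratio of 0.94 (exact permutation p = 0.1, adjusted over the 7 ratios 0.233). Every hdl library had the larger ratio, at the smallest p the design allows. CER1 over CER1-like 1 was 2.59 and 4.13 in hdl, against 1.08, 0.294 and 0.644 in WT, a difference of 2.44 (exact permutation p = 0.1, adjusted 0.233). The paralog with more reads was thus CER1 in both hdl libraries and in WT replicate 1, and CER1-like 1 in the other WT libraries.

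CER1 over CER3 was 0.0532 and 0.0592 in hdl, against 0.184, 0.0314 and 0.126 in WT. The hdl ratios lay within the WT range, with a difference in mean log2 ratio of -0.70 (exact permutation p = 0.5, adjusted 0.7). That difference was -1.44 without WT replicate 2, -0.19 without WT replicate 1 and -0.46 without WT replicate 3. CER2 over CER26 and KCR1 over CER10 differed by -0.03 and 0.12 in mean log2 ratio (exact permutation p = 1 and 0.9), and their groups overlapped. The ratios with CER4 rest on 0 or 1 read and are not given.

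**Figure D2:**
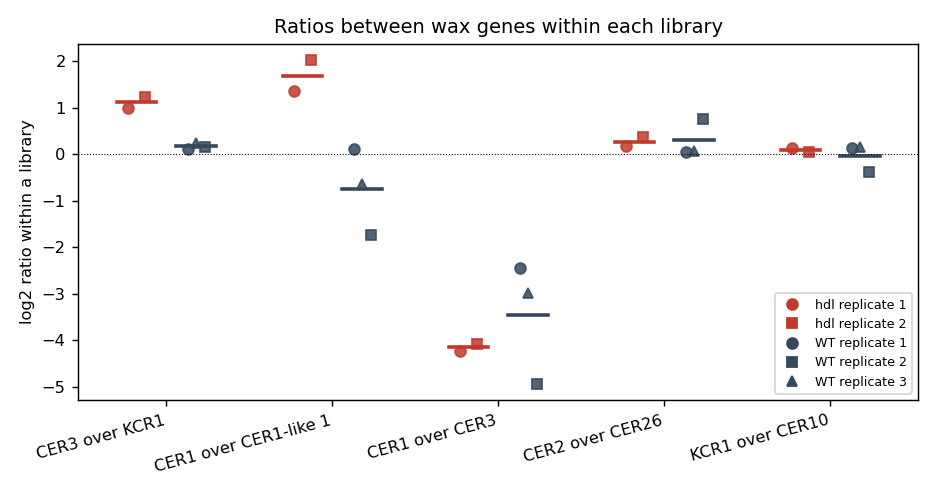
Log2 ratio of the normalized counts of 2 genes within each library, for 5 pairs, with hdl in red on the left and WT in dark blue on the right of each pair; horizontal lines are group means. CER3 over KCR1 and CER1 over CER1-like 1 separate the genotypes, and the other 3 ratios overlap.

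Likeness between profiles was measured as the root mean square difference of log2(normalized count + 1), centred on the mean of each gene, over the 5 libraries. Among the 7 tested genes the nearest pairs were CER26 and KCR1, at 0.18, and KCR1 and CER10, at 0.20. CER1 was at 0.85 to 1.35 from the other 6 and CER1-like 1 at 1.12 to 1.57. Over these 5 libraries the tandem pair thus stood apart from the others and from each other. The CER1 distances include WT replicate 2, at 25.6 normalized counts against 151 to 235 in the other libraries. Distances without that library were not computed. Among 16925 other genes with a mean of at least 50 normalized counts, those nearest to CER3 were MLO11 at 0.034, NIT4, a nitrilase gene, at 0.048 and AT1G68570 at 0.052. MLO11 had 372 and 358 normalized counts in hdl, against 103, 71.7 and 110 in WT. Those nearest to CER1 were ACA1 at 0.14, AT1G29250 at 0.16 and IPMI2 at 0.19. ACA1, an alpha carbonic anhydrase gene, had 1350 and 1350 in hdl, against 1033, 152 and 836 in WT, again with WT replicate 2 far below the rest. ACA1 and AT1G68570 overlap a gene on the opposite strand.

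The other genes that feed the elongase moved in the same direction where they were called. Of 16 fixed genes for chain condensation, the remaining elongase steps and acyl activation, 15 were tested. Of these 8 rose, 0 fell and 7 did not pass in limma, which called 8.21% of all genes higher and 4.5% lower. The median log2 change of the 15 was 1.01. PAS1 at -0.39, LACS1 at -0.17 and KCS16 at -0.07, named here after their values were seen, were the only tested genes below 0. LACS3, which activates long-chain fatty acids, had 3227 and 2839 normalized counts in hdl, against 351, 357 and 374 in WT (log2 change 3.07 ± 0.14, SE; adjusted p = 0.00298, limma). ACC1, the acetyl-CoA carboxylase that supplies the elongation units, had 11189 and 11049 in hdl, against 4334, 4557 and 4789 in WT. KCS9, a condensing enzyme gene, changed by 1.54 and LACS2, an acyl activating enzyme of cutin synthesis, by 1.65. CER6, the condensing enzyme on which CER2 and CER26 act, named here after its values were seen, had 15706 and 14730 in hdl, against 4063, 5593 and 3700 in WT. PAS2, the dehydratase between the KCR1 and CER10 steps, also chosen after its values were seen, had 565 and 623 in hdl, against 246, 569 and 325 in WT, and did not pass (log2 change 0.73, adjusted p = 0.211, limma).

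Cytochrome b5 proteins are electron carriers known to act with CER1. Of 4 tested genes none was called by limma, edgeR or DESeq2, and 0 had an unadjusted p under 0.05 in limma. Among all genes tested, limma called 8.21% higher and 4.5% lower, edgeR 7.97% and 4.08%, and DESeq2 12.8% and 10.6%. In limma 6533 of 20391 genes had an unadjusted p under 0.05. CB5-E changed by 0.13 and CB5-D by 0.25, and both overlap a gene on the opposite strand. CB5-C, chosen after its values were seen, had 277 and 309 normalized counts in hdl, against 179, 29.5 and 180 in WT. Its low library was WT replicate 2, as for CER1. Without that library 2 of the 4 genes rose, in the fit that called 17.8% of all genes higher.

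Relatives of the 10 genes in the CER1, CER2, alcohol-forming reductase, WSD1 and CYP96A families numbered 29, of which 27 had a row and 13 were tested. Of these 3 rose, 0 fell and 10 did not pass in limma, which called 8.21% of all genes higher and 4.5% lower. The median log2 change of the 13 was 0.47. FAR5 and FAR6 passed the filter through hdl libraries alone, and the median of the other 11 was 0.19. CYP96A4, a cytochrome P450 gene of the MAH1 family, had 305 and 285 normalized counts in hdl, against 24.4, 10.2 and 71.7 in WT (log2 change 3.43 ± 0.77, SE; adjusted p = 0.038, limma). Its hdl libraries were several times the highest WT library. CYP96A1 had 217 and 154 in hdl, against 64.7, 83.3 and 48.4 in WT (log2 change 1.50 ± 0.36, SE; adjusted p = 0.0465, limma). AT5G16350, annotated as a WSD1-like acyltransferase gene, changed by 1.74 and overlaps a gene on the opposite strand. Without hdl replicate 1, hdl replicate 2 or WT replicate 1, 0 relatives rose, and without WT replicate 3 only 1 did.

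Export genes rose together, while regulators did not pass. All 4 export genes tested rose in limma, which called 8.21% of all genes higher, and their median log2 change was 1.38. CER5, an ABC transporter gene, had 7379 and 6744 normalized counts in hdl, against 2143, 2999 and 2055 in WT, a log2 change of 1.58. LTPG2 changed by 1.54, LTPG1 by 1.23 and ABCG11 by 1.10; LTPG1 and ABCG11 overlap a gene on the opposite strand. Of 13 wax regulators 12 were tested and none was called by limma or edgeR, while DESeq2 called 1 lower. In limma 2 of the 12 had an unadjusted p under 0.05, against 6533 of all 20391 genes. Of all genes, limma called 8.21% higher and 4.5% lower, edgeR 7.97% and 4.08%, and DESeq2 12.8% and 10.6%. Their median log2 change was 0.16. CER9, a ubiquitin ligase gene, changed by 0.30 (adjusted p = 0.188, limma). MYB96, an activator of wax genes, had 3099 and 2959 in hdl, against 1534, 3962 and 1560 in WT, so the groups overlapped through WT replicate 2 (log2 change 0.52, adjusted p = 0.43, limma). Without WT replicate 2 the regulators counted 4 higher and 1 lower, in the fit that called 17.8% of all genes higher and 11.4% lower.

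**Figure D3:**
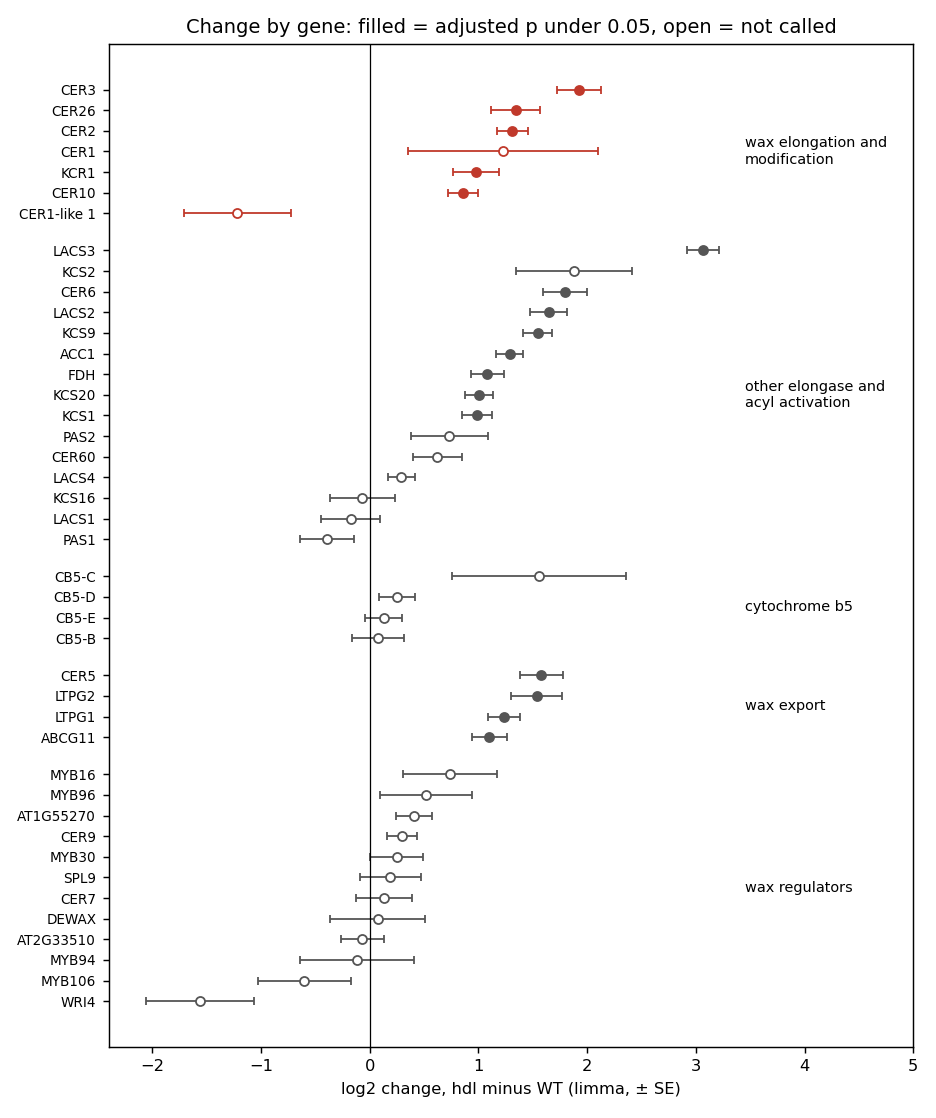
Log2 change, hdl minus WT, with its SE from limma, for the tested genes of 5 lists: the 7 tested wax enzyme genes in red and the other lists in grey. Filled points passed an adjusted p of 0.05 and open points did not; 5 of 7 wax enzyme genes, 8 of 15 elongase and activation genes, 0 of 4 cytochrome b5 genes, 4 of 4 export genes and 0 of 12 regulators are filled.

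The calls rest on few libraries. Across tested genes, log2 values of hdl replicate 2 correlated at 0.9173 with hdl replicate 1 and at 0.9216 with WT replicate 1. Those of hdl replicate 1 correlated at 0.8219 to 0.8656 with the WT libraries. Without hdl replicate 1 limma called 0 genes in either direction, with 4006 at an unadjusted p under 0.05, and 0 of the 7 wax enzyme genes. The log2 changes then were 1.91 for CER3, 1.25 for CER2, 1.18 for CER26, 0.85 for KCR1 and 0.78 for CER10, each from a lone hdl library assumed to vary like WT. Leaving out any library but WT replicate 2 ended the calls of KCR1 and CER10, with KCR1 at 0.85 to 1.10 and CER10 at 0.78 to 0.94, and leaving out WT replicate 3 ended that of CER26, at 1.41. With no intensity trend only CER3 and CER2 passed, against 3.33% of all genes called higher and 2.29% lower. Without genes that overlap the other strand, CER3, CER26 and KCR1 passed of 5 tested, against 10.1% higher and 5.38% lower. edgeR and DESeq2, run on whole reads recovered from the values, each called 5 higher and 0 lower; edgeR called 7.97% of all genes higher and 4.08% lower, and DESeq2 12.8% and 10.6%. Non-overlap is common in these data: 26.7% of all tested genes had every hdl library above every WT library and 26.9% below, against 5 and 1 of the 7 genes.

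**Figure D4:**
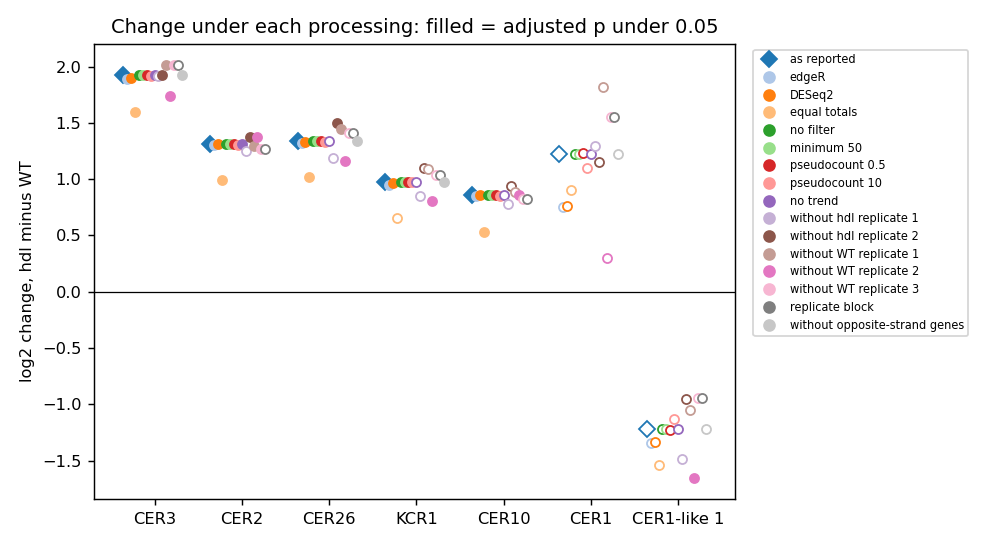
Log2 change, hdl minus WT, of the 7 tested genes as reported (diamond) and under up to 15 alternatives (circles, coloured by alternative), filled where the adjusted p was under 0.05. No gene changes sign; CER1 is filled nowhere and drops to 0.30 without WT replicate 2.

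Markers of cell types also differed between the sorted samples. Calls here are those of limma unless another tool is named. Of all genes, limma called 8.21% higher and 4.5% lower, edgeR 7.97% and 4.08%, and DESeq2 12.8% and 10.6%. Of 6 epidermal markers 3 rose, and the summed level was 44941 to 51278 normalized counts in hdl, against 18099 to 19580 in WT. The markers that rose were FDH and LTP1, both cuticle genes, and PDF2; without FDH and LTP1 the sums overlapped, at 9244 to 10514 in hdl, against 7425 to 10094 in WT. ATML1, whose promoter drives the reporter, and PDF1 did not pass, at 0.23 and -0.21 on the log2 scale. Of 6 mesophyll markers 2 rose in limma, 4 in edgeR and 5 in DESeq2. Their sums were 850395 to 892774 in hdl, against 385045 to 567047 in WT. RBCS1A and RCA, which did not pass in limma, hold most of those sums. Without them the sums were 195360 to 195744 in hdl, against 121306 to 151550 in WT. CAB3 lay the other way, at 36984 and 39603 in hdl, against 59963, 45316 and 48990 in WT. Of 7 vascular markers 3 fell in limma, 3 in edgeR and 5 in DESeq2. Their sums were 27545 to 29659 in hdl, against 46969 to 78426 in WT. SWEET11 went the other way, at 5829 and 5319 in hdl, against 5185, 2633 and 4835 in WT. Of 5 guard cell markers 1 fell, with sums of 507 to 714 in hdl, against 798 to 1057 in WT, although MYB60 was at 194 and 256 in hdl, against 120, 133 and 168 in WT. The single markers given here were chosen after their values were seen. No marker of these 4 lists was at 0 in all libraries. Of 3 root markers EXPA7 had no row, and the sums of the other two were 6.18 to 8.09 in hdl, against 3.84 to 27.6 in WT. The part of these differences in the changes of the wax genes was not tested.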

How the data were processed

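Leaf epidermal protoplasts of hdl (2 libraries) and WT (3 libraries) were sorted and sequenced after TruSeq library preparation from 10 to 20 ng of RNA, per the labels' protocols; all libraries carry batch number 1. Per the submitters' processing notes, TAIR10 was the build, and DESeq2, deepTools, Trimmomatic 0.33, FastQC 0.11.9, SAMtools 1.16.1 and Bowtie2 2.5.0 were used. How reads were counted is not given in the sources used here, nor is strand. Values are a normalized signal per gene deposited by the authors, whose file carries the name of DESeq2; a second table, of other features, was not used.

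Genes that reached 10 normalized counts in 2 or more libraries were tested with limma 3.58.1 in R 4.3.3 on log2(value + 1), with an intensity trend and all 5 libraries, two-sided, and Benjamini-Hochberg adjustment over 20391 genes. Fold changes on this scale understate changes of low genes. Within each library 100% of values were whole multiples of 1 step within 0.01, so whole reads were recovered. On these edgeR 4.0.16 called 1625 genes higher and 832 lower in hdl, and DESeq2 1.42.0 called 2619 and 2152. Gene names, coordinates, exon lengths and sequences are RefSeq's for TAIR10.1, in which 24108 of 24200 identifiers were found; no coordinate was taken from the deposited files.

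The genes and lists were chosen with earlier results of these data known. The genes named are the 10 wax genes, up to 4 called members of each list by smallest p (or its 2 most abundant where none was called), and the 3 nearest profiles to CER1 and CER3. Others are marked as chosen after their values were seen. Poisson intervals and the floor of 3 counts cover counting error only. Alternatives changed the tool, scaling, filter, pseudocount, trend, libraries, replicate block and gene set.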

Additional observations from a re-analysis of the deposited data

How the results depend on the processing

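In each of the alternatives run, none of the 7 tested wax genes changed sign. CER3 passed in 13 of 15 alternatives, CER2 in 12 of 14, CER26 in 11 of 15, KCR1 in 8 of 15, CER10 in 8 of 14, CER1-like 1 in 1 of 15 and CER1 in 0 of 15. Where a count moved, the cause was not tested.

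Wax genes called higher, 5 as reported, numbered 2 with no intensity trend and 3 once opposite-strand overlaps were left out, where 5 were tested. Over fits that leave out 1 library they ranged from 0 to 5, and those called lower from 0 to 1. Their median change of 1.22 was 0.95 with edgeR, 0.96 with DESeq2, 0.90 with equal totals and 0.85 to 1.30 when 1 library was left out. Equal totals moved the median of all genes from -0.05 to -0.37; relative to that median CER3 was at 1.97 in both scalings and KCR1 at 1.03.

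Genes called higher and lower, 1674 and 917 as reported, were 2619 and 2152 with DESeq2, 994 and 2553 with equal totals, and 679 and 467 with no trend. They ranged over 0 to 3574 and 0 to 2295 without 1 library, highest without WT replicate 2 and at 0 without hdl replicate 1. The split of calls thus turned toward lower with equal totals.

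With the replicate number as a block, which drops WT replicate 3 and leaves 1 residual degree of freedom, limma called 0 genes, with 4529 at an unadjusted p under 0.05, and 0 members of every list; the 5 risen wax genes kept changes of 2.02, 1.27, 1.41, 1.04 and 0.82 (CER3, CER2, CER26, KCR1, CER10). The labels do not say that numbers pair the samples, and deviations of same-numbered libraries correlated at 0.00477 and -0.0123 across genes.

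Called higher among elongase and activation genes, 8 as reported, ranged from 0 to 11 without 1 library, cytochrome b5 genes from 0 to 2, and family relatives from 0 to 4, with 1 under no trend; relatives called lower ranged from 0 to 1. Export genes ranged from 0 to 4, with 2 under no trend and 2 without opposite-strand genes. Regulators ranged from 0 to 4 higher and 0 to 1 lower, with 1 lower under DESeq2 and 1 under equal totals. Cutin genes, 4 as reported, ranged from 0 to 9, with 7 under DESeq2, 2 under equal totals and 1 under no trend.

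The difference in log2 ratio of CER2 over CER26, -0.03, ranged from -0.15 to 0.21 without 1 library, with 0.07 without hdl replicate 1, and that of KCR1 over CER10, 0.12, from -0.051 (without WT replicate 2) to 0.21. CER4 and WSD1, at 0 to 17 reads, lay below the filter. With no filter neither was called. WSD1 then changed by 3.07 (adjusted p = 0.12, limma), in a fit that called 1560 of 24200 genes higher and 819 lower.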

Other observations

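Cutin is the polyester matrix in which wax is embedded, and its synthesis genes moved in the same direction where they were called. Of 11 tested genes 4 rose, 0 fell and 7 did not pass in limma, which called 8.21% of all genes higher and 4.5% lower. The median log2 change of the 11 was 1.07. CYP86A2, which hydroxylates cutin monomers, had 11178 and 10051 normalized counts in hdl, against 3761, 2344 and 3267 in WT; it overlaps a gene on the opposite strand. GPAT4, an acyltransferase gene of cutin synthesis, had 2386 and 2241 in hdl, against 1079, 1428 and 1218 in WT. BDG, which also overlaps an opposite-strand gene, changed by 1.07 and LTL1 by 1.13. In 10 of the 11 genes both hdl libraries were above every WT library, against 26.7% of all tested genes.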
